A study of Mus musculus with 2 samples.

Results

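Otx2, Pou3f1, Lef1, Foxd3, Sox4, Sall2 and Zic2 encode transcription factors used as marks of formative and primed pluripotency. They were taken by gene symbol, as 7 of the 32285 genes listed, and all 7 were found. They were measured in E14 mouse embryonic stem cells (129/Ola background) grown in serum with leukaemia inhibitory factor (LIF), which holds back differentiation. One library, control, came from cells given a control small interfering RNA (siRNA), and the other, sonKD, from cells given siRNA against Son, an RNA-binding protein of nuclear speckles that takes part in splicing. Both were transfected with Lipofectamine2000, harvested after 24 hours, frozen, thawed, sorted for exclusion of the dye 7-AAD and barcoded with 10x Genomics 3' v3 chemistry. With 1 library per group there are no replicates, no test was made, and an effect of the knockdown and a difference between libraries cannot be told apart. All intervals are at 95% and cover counting error only.

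Embryonic stem cells pass from a naive state, held by factors such as Nanog, Esrrb and Zfp42, through a formative state towards a primed state like that of the late epiblast. Otx2 and Pou3f1 (Oct6) open and bind enhancers in the first step of that passage, and Foxd3 prepares enhancers there. Zic2 acts with them later, Lef1 is the DNA-binding partner of beta-catenin in Wnt signalling, Sox4 is a SoxC factor of progenitor cells, and Sall2 is a zinc finger relative of Sall4. In serum with LIF, single cells are known to differ in how near they stand to the naive state.

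The 4 most abundant factors were Sox4, Pou3f1, Foxd3 and Otx2, and RefSeq promoter windows on GRCm38.p6 were at hand for all but Pou3f1 among them. Otx2 had several windows with different motifs, and only the most upstream is printed. Capitals mark motifs. The 250 bases before the most upstream Otx2 start in the table, at chr14:48667645-48667894 on the minus strand, lie inside the longer annotated Otx2 gene, outside its exons, and hold TATAAA.
Otx2: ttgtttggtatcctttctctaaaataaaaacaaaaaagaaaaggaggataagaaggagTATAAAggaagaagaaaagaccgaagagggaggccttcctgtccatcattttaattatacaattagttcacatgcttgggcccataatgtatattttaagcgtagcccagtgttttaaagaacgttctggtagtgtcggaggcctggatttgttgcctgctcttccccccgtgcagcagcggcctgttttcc
The window before the Foxd3 start, at chr4:99656049-99656298 on the plus strand, held none of the 7 motifs searched, at 65.6% GC.
Foxd3: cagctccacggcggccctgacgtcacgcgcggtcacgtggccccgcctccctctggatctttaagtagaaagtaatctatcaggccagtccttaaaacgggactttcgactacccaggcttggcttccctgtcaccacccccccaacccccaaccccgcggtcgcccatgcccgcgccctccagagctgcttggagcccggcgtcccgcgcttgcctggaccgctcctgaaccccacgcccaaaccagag
The window before the Sox4 start, at chr13:28953700-28953949 on the minus strand, held CCAAT or its reverse complement 4 times, at 50.8% GC. Its end overlaps the annotated Sox4 exon, which reaches 28953713, and the last of the 4 matches lies in that overlap.
Sox4: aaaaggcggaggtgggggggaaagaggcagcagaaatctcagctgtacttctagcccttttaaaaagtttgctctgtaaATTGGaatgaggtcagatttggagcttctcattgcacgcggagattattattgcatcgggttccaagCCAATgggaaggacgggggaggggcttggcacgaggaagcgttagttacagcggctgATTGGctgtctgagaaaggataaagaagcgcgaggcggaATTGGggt
Both strands were searched. TATAAA was in 12.3% of all 32536 promoter windows and CCAAT, bound by NF-Y, in 33.8%. The other motifs were GGATTA (Otx, 6.25%), ATGCAAAT (POU, 1.62%), CTTTGAT (Lef1 and Tcf, 3.21%), ACAAAG (Sox, 16.5%) and the GC box GGGCGG (33.0%). GGATTA, the Otx core, stood once in another Otx2 window, at chr14:48665110-48665359. CCAAT also stood once in an Otx2 window, at chr14:48667509-48667758. The Otx2 window at chr14:48662735-48662984 held none of the 7 motifs. ATGCAAAT and CTTTGAT stood in no window of the 5 factors in the table, which were Otx2, Lef1, Foxd3, Sox4 and Sall2. A match describes letters and says nothing of binding.

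A barcode counted as a cell from 2500 unique molecular identifiers (UMIs, 1 per captured molecule) and 1000 genes, if mitochondrial UMIs made up no more than 10%. This kept 4978 control cells (median 7737.5 UMIs) and 2731 sonKD cells (median 11612), with 40902904 and 32032551 UMIs, and 2 barcodes were shared by both. The mitochondrial limit took out 11.2% of control barcodes and 27.9% of sonKD barcodes. Son stood at 169 CPM (UMIs scaled to a fixed total per library) in control and 106 in sonKD, a log2 ratio of -0.67 (-0.73 to -0.61). All 7 embryonic stem cell markers were high, from 153 CPM for Nanog in sonKD to 6075 for Dppa5a in sonKD. Summed CPM in control and sonKD was 5.06 and 4.71 over 7 mesoderm and primitive streak markers, 6.28 and 5.06 over 6 endoderm markers, and 7.97 and 11.2 over 6 trophectoderm markers. It was 3.18 and 3.65 over 6 fibroblast markers and 4.43 and 3.96 over 4 neural crest markers. Elf5, Col3a1 and Lum had no UMI. The 7 neuroectoderm markers summed to 124 and 107 CPM, mostly Ncam1 and Tubb3, with Pax6 at 0.440 and 0.281. Over the 8063 genes that averaged 10 CPM or more, the log2 ratio of sonKD over control had a median of -0.12 and ran from -0.40 at the 5th to 0.25 at the 95th percentile.

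Transcripts of all 7 factors were found in both libraries, at low levels. Sox4, Pou3f1, Foxd3 and Otx2 averaged at least 10 CPM, and Sall2, Zic2 and Lef1 did not. All 4 of the first group were lower in sonKD, as were 74.9% of all genes at 10 CPM. By at least 1.2-fold, 2 of the 4 were lower, against 17.6% of all genes. None was higher by 1.2-fold, against 4.65% of all genes. The median log2 ratio of the 4 was -0.24, beside -0.12 for all genes. Both of these 1.2-fold differences went under 1.2-fold with TMM scaling, and likewise when mitochondrial and ribosomal protein genes were left out of the total.

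Otx2, the homeodomain factor that leads the exit from naive pluripotency, was counted 444 times in control and 310 times in sonKD. That was 10.9 CPM (9.87 to 11.9) and 9.68 CPM (8.63 to 10.8), and the intervals overlapped. The log2 ratio was -0.17 (-0.38 to 0.05), and 37.4% of all genes at 10 CPM had a lower one. Otx2 (ENSMUSG00000021848) lies on chromosome 14 from 48657677 to 48673819, minus strand, with 6 exons in its main transcript. The long noncoding Otx2os1 overlaps it on the other strand, at 2.44 and 2.31 CPM.

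Pou3f1, the POU factor that marks the formative epiblast, was lower in sonKD by more than its counting error. Its 532 control and 335 sonKD UMIs came to 13.0 CPM (11.9 to 14.2) and 10.5 CPM (9.37 to 11.6), and the intervals did not overlap. The log2 ratio was -0.31 (-0.52 to -0.11), with 10.9% of all genes lower. Its upper end reached the median of all genes, -0.12. Pou3f1 (ENSMUSG00000090125) is a single exon on chromosome 4 from 124656807 to 124660655, plus strand. The antisense Gm2164, which overlaps its start, went from 148 UMIs to 72, or 3.62 to 2.25 CPM.

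Foxd3, a forkhead factor of the epiblast and neural crest, had 515 and 358 UMIs. Its level was 12.6 CPM (11.5 to 13.7) in control and 11.2 CPM (10.0 to 12.4) in sonKD, with overlapping intervals. The log2 ratio was -0.17 (-0.37 to 0.03), and 35.9% of all genes had a lower one. Foxd3 (ENSMUSG00000067261) is a single exon on chromosome 4 from 99656299 to 99658622, plus strand. Gm12688 starts on the other strand 1316 bases away, at 3.62 and 3.28 CPM.

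Sox4 was the most abundant of the 7 in CPM and, like Pou3f1, was lower in sonKD by more than its counting error. Its 822 control and 520 sonKD UMIs came to 20.1 CPM (18.7 to 21.5) and 16.2 CPM (14.9 to 17.7), without overlap. The log2 ratio was -0.31 (-0.47 to -0.15), with 11.5% of all genes lower. Sox4 (ENSMUSG00000076431) is a single exon on chromosome 13 from 28948919 to 28953713, minus strand. Of the 4 factors at 10 CPM, Pou3f1, Foxd3 and Sox4 have a single exon and Otx2 is spliced.

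Sall2, Zic2 and Lef1 were too sparse for a direction. Sall2 (ENSMUSG00000049532; chromosome 14, 52311172 to 52328762, minus strand, 2 exons) had 104 and 63 UMIs, or 2.54 CPM (2.08 to 3.08) and 1.97 CPM (1.51 to 2.52), a log2 ratio of -0.37 (-0.85 to 0.09). Zic2 (ENSMUSG00000061524; chromosome 14, 122475435 to 122479852, plus strand, 3 exons) had 35 and 39 UMIs, or 0.856 CPM (0.596 to 1.19) and 1.22 CPM (0.866 to 1.66), a log2 ratio of 0.51 (-0.19 to 1.21). Lef1 (ENSMUSG00000027985; chromosome 3, 131110471 to 131224356, plus strand, 12 exons) had 15 UMIs in each library, or 0.367 CPM (0.205 to 0.605) and 0.468 CPM (0.262 to 0.772), a log2 ratio of 0.35 (-0.78 to 1.49). All 3 intervals held 0. Summed over the 7 factors, the level was 60.3 CPM (58.0 to 62.7) in control and 51.2 CPM (48.7 to 53.7) in sonKD, a log2 ratio of -0.24 (-0.33 to -0.15).

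**Figure D1:**
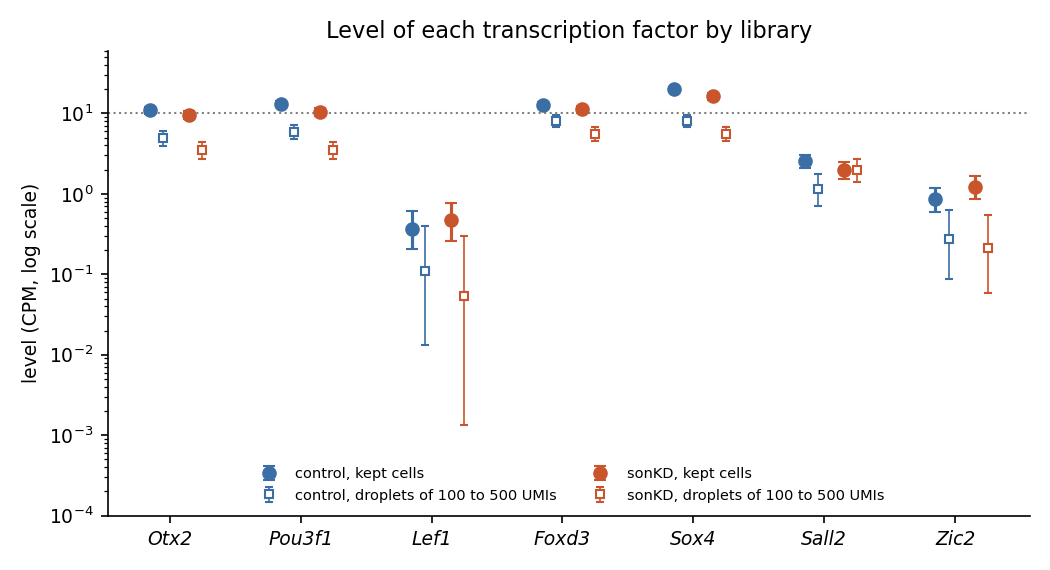
Level of each factor in CPM (log axis) in kept cells (filled circles) and in droplets of 100 to 500 UMIs (open squares), with exact Poisson 95% intervals; the dotted line is 10 CPM. Sox4, Pou3f1, Foxd3 and Otx2 sit near or above 10 CPM and above the droplets in both libraries, while Sall2 in sonKD sits at the droplet level. The intervals of Zic2 in control and of Lef1 in both libraries overlap those of the droplets.

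**Figure D2:**
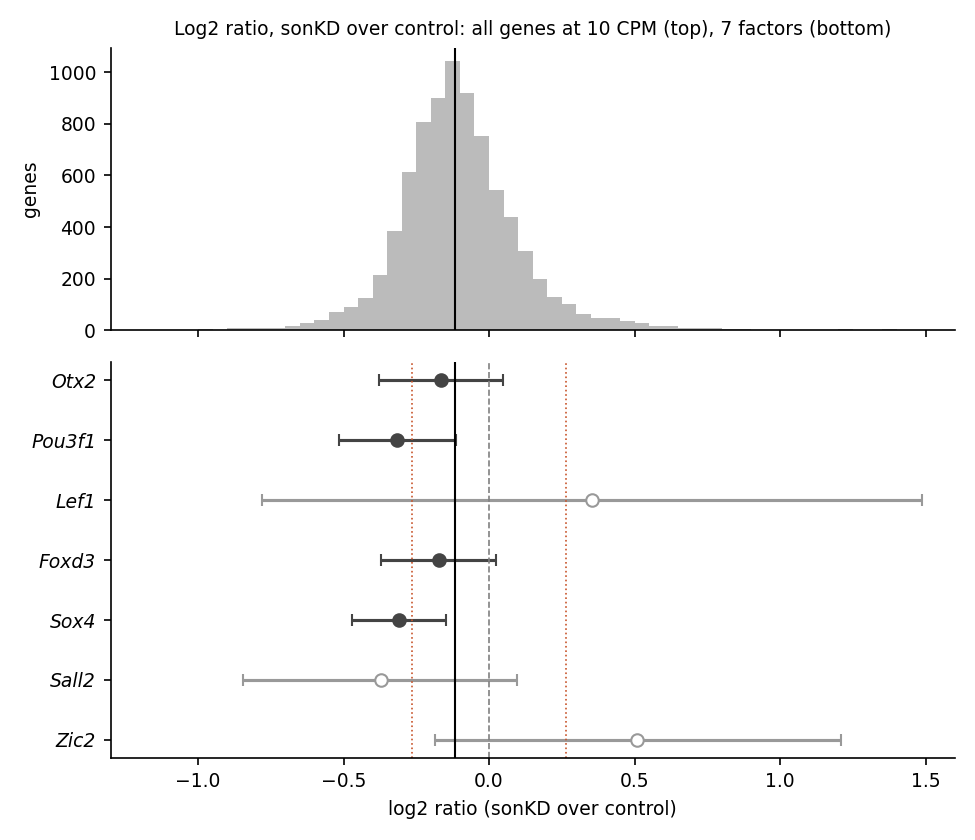
Log2 ratio of sonKD over control for the 8063 genes at 10 CPM (top; values between -1.3 and 1.6 are drawn, number of genes on the y axis) and for the 7 factors with exact conditional binomial 95% intervals (bottom; open circles are under 10 CPM). The black line is the median of all genes, -0.12, the dashed line 0 and the dotted lines 1.2-fold; Pou3f1 and Sox4 lie past the lower dotted line, and the intervals of Lef1 and Zic2 are the widest.

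Ordered by CPM per kilobase of the main transcript, the control levels were Foxd3 5.42 (4.96 to 5.91), Sox4 4.19 (3.91 to 4.49), Otx2 4.19 (3.81 to 4.60) and Pou3f1 3.38 (3.10 to 3.68). Far below stood Sall2 at 0.494 (0.404 to 0.599), Zic2 at 0.351 (0.244 to 0.488) and Lef1 at 0.105 (0.0589 to 0.174). Neither Sox4 and Otx2 nor Sall2 and Zic2 differed beyond counting error. In sonKD the order was Foxd3 4.81 (4.32 to 5.33), Otx2 3.73 (3.33 to 4.17), Sox4 3.39 (3.10 to 3.69), Pou3f1 2.72 (2.43 to 3.02), Zic2 0.499 (0.355 to 0.682), Sall2 0.382 (0.294 to 0.489) and Lef1 0.134 (0.0753 to 0.222). The same pairs overlapped there. Counts from 3' ends do not scale with length, so this order is a rough one.

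Droplets of 100 to 500 UMIs, which hold mostly free RNA, gave a background for each factor. Otx2 stood there at 4.90 CPM in control and 3.49 in sonKD, Pou3f1 at 5.88 and 3.49, Foxd3 at 8.11 and 5.58, and Sox4 at 8.11 and 5.52. These 4 were higher in kept cells than in droplets, with no overlap of intervals in either library. Sall2 was at 1.14 CPM (0.708 to 1.75) in control droplets, below the cells. In sonKD droplets it was at 1.98 CPM (1.40 to 2.74), at the level of the cells, so its sonKD value cannot be told from background. Zic2 was at 0.272 CPM (0.0884 to 0.635) in control droplets and 0.215 CPM (0.0584 to 0.549) in sonKD droplets. Its interval overlapped that of the kept cells in control and did not in sonKD. Lef1 had 2 droplet UMIs in control, or 0.109 CPM (0.0132 to 0.393), and 1 in sonKD, or 0.0536 CPM (0.00136 to 0.299). Both Lef1 intervals overlapped those of the kept cells. Lef1 in both libraries, and Zic2 in control, thus stood higher in kept cells than in droplets, but with overlapping intervals. Overlap of separate intervals does not show equal levels, and the ratio of cells to droplets was not tested.

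Pou3f1 stood lower in the barcodes left out for high mitochondrial content than in the kept cells. It was at 7.09 CPM (3.88 to 11.9) in the control barcodes left out and at 6.31 CPM (4.0 to 9.47) in those of sonKD, where its interval met that of the kept cells. Foxd3 stood at 20.3 CPM (14.5 to 27.6) in the control barcodes left out, above the kept cells, and at 9.88 CPM (6.92 to 13.7) in those of sonKD. Sox4 stood at 21.8 CPM (15.8 to 29.3) and 23.1 CPM (18.4 to 28.5), the second above the kept sonKD cells. Otx2 was at 7.59 CPM (4.25 to 12.5) and 7.69 CPM (5.11 to 11.1). The part of this limit in the differences between libraries was not tested beyond a stricter limit of 5%, which kept the sign of all 4.

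Most cells had no UMI of a given factor. At an equal depth of 4000 UMIs per cell, 4710 control and 2622 sonKD cells remained, and 268 and 109 shallower cells were left out. The mean share over all possible draws was 7.61% in control and 6.05% in sonKD for Sox4. It was 4.95% and 3.66% for Pou3f1, 4.75% and 3.98% for Foxd3, and 4.11% and 3.79% for Otx2. Sall2 was found in 1.00% and 0.794%, Zic2 in 0.403% and 0.491%, and Lef1 in 0.154% and 0.194%. The order of the 4 larger shares in control followed their CPM.

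A single draw carries an interval, and 3 draws were made. The Pou3f1 difference was -1.34 percentage points (-2.29 to -0.35) in the draw shown in the plot of shares, -1.54 (-2.47 to -0.56) with a second seed and -1.73 (-2.67 to -0.74) in the draw made first. The Sox4 difference was -1.62 (-2.79 to -0.40), -1.28 (-2.49 to -0.03) and -0.97 (-2.16 to 0.27), so its interval held 0 in 1 of the draws. For Otx2 it was -0.74 (-1.63 to 0.20) and for Foxd3 -0.62 (-1.59 to 0.40) in the draw shown, and the other draws held 0 as well. At 2500 UMIs the differences were smaller and their intervals held 0, at -0.75 (-1.49 to 0.04) for Pou3f1 and -0.81 (-1.72 to 0.16) for Sox4. At 6000 UMIs they were -2.33 (-3.55 to -1.08) for Pou3f1, -2.37 (-3.88 to -0.82) for Sox4 and -1.38 (-2.61 to -0.12) for Foxd3. Without thinning, the shares were higher in sonKD for all 7: Sox4 14.2% and 15.7%, Foxd3 9.40% and 11.5%, Pou3f1 9.72% and 10.1%, Otx2 7.98% and 9.19%. The sonKD cells were deeper, and the CPM ran the other way for these 4. In droplets, a UMI of Sox4 was found in 0.247% and 0.165%, and one of Pou3f1 in 0.180% and 0.104%, at far lower depth.

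**Figure D3:**
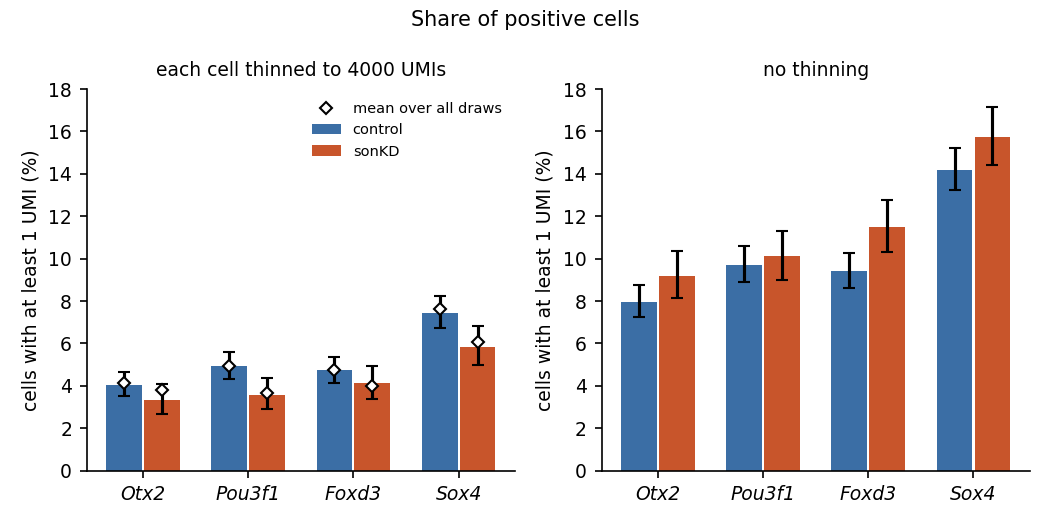
Share of cells with at least 1 UMI of Otx2, Pou3f1, Foxd3 and Sox4, in percent, after thinning to 4000 UMIs (left) and without thinning (right); bars are 1 draw with exact binomial 95% intervals, and diamonds are the mean over all draws. The 4 shares are lower in sonKD at equal depth and higher in sonKD without thinning.

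Cells with several UMIs of 1 factor were few. Without thinning, Otx2 reached at most 3 UMIs in a cell of either library, Pou3f1 3 in control and 5 in sonKD, Foxd3 3 in both, and Sox4 6 and 7. The Fano factor, the variance of counts over their mean, is 1 for counts that scatter at random. As a mean over all draws it was 1.06 in control and 1.11 in sonKD for Otx2, and 1.01 and 1.13 for Pou3f1. Of the 200 genes nearest in mean level, 99% had a lower value than Otx2 and 99.5% than Pou3f1 in sonKD, against 91.5% and 42% in control. In the draw shown these sonKD values rested on 8 cells with at least 2 UMIs of Otx2 and 6 of Pou3f1. Foxd3 was at 1.05 and 1.04 and Sox4 at 1.06 and 1.08.

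At equal depth, the number of cells with 2 of the factors was close to what their shares give by multiplication. Over the 6 pairs of Otx2, Pou3f1, Foxd3 and Sox4, the mean over all draws was 81.1 double-positive counts in control, where 79.4 were expected, a ratio of 1.02. In sonKD it was 27.9, where 29.5 were expected, a ratio of 0.945. In the draw shown the ratios were 0.94 (0.74 to 1.18) and 1.09 (0.74 to 1.56), from 73 and 30 counts. Without thinning, where depth differs between cells, they were 1.15 in control, 359 counts for 313 expected, and 1.04 in sonKD, 228 for 218. Pou3f1 with Foxd3 stood furthest above in control, at 15.2 cells for 11.1 expected, but at 2.52 for 3.82 in sonKD. Otx2 with Foxd3 was at 6.63 for 9.21 in control and 3.44 for 3.96 in sonKD, and Otx2 with Sox4 at 17.1 for 14.7 and 8.82 for 6.01. Pairs with Sall2, Zic2 or Lef1 had too few cells to compare. At least 2 of the 7 factors were found in 1.80% of control cells (1.44 to 2.23), where independence gives 1.86%, and in 1.14% of sonKD cells (0.773 to 1.63), where it gives 1.19%.

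**Figure D4:**
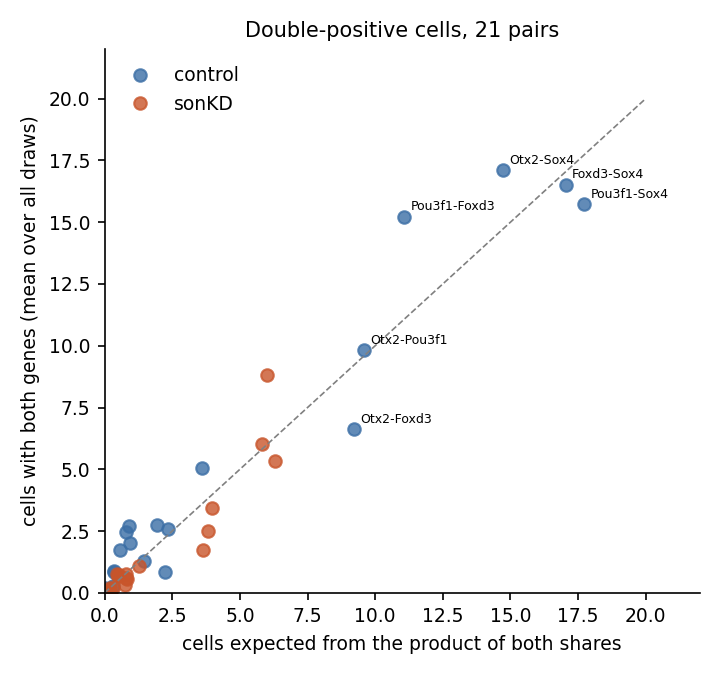
Cells with both genes of a pair (y axis, mean over all draws at 4000 UMIs) against the number expected from the product of the 2 shares (x axis), for the 21 pairs in control (blue) and sonKD (orange); the dashed line is equality. The points follow the line, with Pou3f1 and Foxd3 in control at 15.2 against 11.1.

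Correlations of log counts over cells ran from -0.025 to 0.034 in control and from -0.030 to 0.048 in sonKD for these 6 pairs. They are descriptions over 4710 and 2622 cells that share a library. Among 1189 genes of a like mean level, the 99th percentile over all 706266 pairs was 0.041 and 0.054. Ranked by the smaller of both libraries' values, the top pair, Serpine2 and Ptprt, named for that rank, was at 0.25 and 0.29. A weaker link between the factors could be missed at this depth. The genes most like each factor, by the smaller of both libraries' correlations, led with Malat1 for Otx2 (0.046), Mto1 for Pou3f1 (0.046), Zbtb43 for Foxd3 (0.050) and 9330185C12Rik for Sox4 (0.050). For the sparse factors they led with Nectin2 for Lef1 (0.054), Snrpa1 for Sall2 (0.042) and Mast4 for Zic2 (0.040). Of the 21 genes so chosen, 3 for each factor, 0 were chosen again in a second draw, so these names carry no pattern.

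Against the summed list of naive factors, Pou3f1 had a correlation of -0.039 in control and -0.061 in sonKD, and Foxd3 one of 0.035 and 0.073. That list also held Pou5f1, Sox2 and Sall4, general pluripotency factors that are not particular to the naive state. Pou5f1 alone gave 1104 of its 4103 summed CPM in control, so the sum does not measure the naive state alone. Against the summed other formative and primed genes, Pou3f1 was at 0.022 and 0.024, and Foxd3, also above 0, at 0.023 and 0.050. With UMIs before thinning, Foxd3 had 0.006 and 0.062. All are weak in sparse counts. Singled out after its values were seen, Foxd3 was found in 5.87% of control cells with high Zfp42, the naive marker also called Rex1, and in 3.82% of those with low Zfp42. High meant at least 4 Zfp42 UMIs in control (1210 cells) and at least 3 in sonKD (1112 cells), and low at most 1 in both, so the groups are not the same in both libraries. The difference was 2.04 points (0.38 to 3.78) in control and 1.66 points (-0.25 to 3.52) in sonKD. Split by Nanog, another naive factor, Foxd3 was found in 4.88% of control cells with a Nanog UMI and 4.61% of those without, and in 4.93% and 3.54% in sonKD. Split by Esrrb, it was found in 4.75% and 4.72% in control and in 4.26% and 4.04% in sonKD. At 2500 UMIs the Zfp42 difference was 1.00 (0.03 to 2.00) and 0.580 (-0.61 to 1.84), and at 6000 UMIs 1.61 (-0.43 to 3.64) and 1.82 (-0.52 to 4.22). The Zfp42 difference was above 0 in every setting run, and its interval held 0 in several.

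Lef1 and Sall2, both sparse, had relatives at far higher levels. Of 20 paralogs, 6 were at 10 CPM, all 6 were lower in sonKD and 2 by at least 1.2-fold, with a median log2 ratio of -0.24. The shares of all genes were 74.9% and 17.6%. Beside Sall2, the pluripotency factor Sall4 stood at 101 and 82.7 CPM (log2 ratio -0.29, -0.36 to -0.22) and Sall1 at 45.2 and 36.1 CPM (-0.32, -0.43 to -0.22). Beside Lef1, the repressor Tcf7l1 stood at 103 and 87.5 CPM (-0.23, -0.30 to -0.16), Tcf7l2 at 39.6 and 37.6 CPM (-0.08, -0.18 to 0.03) and Tcf7 at 14.7 and 12.3 CPM (-0.25, -0.44 to -0.06). Zic5, the neighbour of Zic2, stood at 4.28 and 3.28 CPM. Per kilobase in control, Tcf7l1 was at 33.8 against 0.105 for Lef1, and Sall4 at 19.9 against 0.494 for Sall2. The relatives of Otx2, Pou3f1 and Foxd3 were near 0: Otx1 had 8 and 3 UMIs, Crx 1 and 2, Pou3f3 7 and 3, and Foxd4 none.

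Other formative and primed genes stood close to the median of all genes. The counts below stand beside 74.9% of all genes lower, and 17.6% lower by at least 1.2-fold. Of 20, 12 were at 10 CPM, 10 of them lower and 2 higher, with a median log2 ratio of -0.14. Only Hes6 was lower by at least 1.2-fold, at 15.9 and 9.93 CPM (-0.68, -0.88 to -0.48), and Tcf15 stood at 314 and 323 CPM (0.04, 0.00 to 0.08). Fgf5, a classical primed marker, had 4 and 6 UMIs. Of 15 genes in the list of naive factors, all at 10 CPM, 14 were lower and 1 higher, 4 by at least 1.2-fold lower, with a median of -0.11. The general pluripotency factors in that list, Pou5f1 (-0.27), Sall4 (-0.29) and Sox2 (-0.07), do not mark the naive state, and Pou5f1 and Sall4 were among those 4. The 2 genes of the list farthest from its median were Prdm14 at 13.1 and 10.3 CPM (-0.35, -0.55 to -0.14) and Nr0b1 at 52.7 and 60.6 CPM (0.20, 0.11 to 0.29). Of 15 Wnt genes, 7 were at 10 CPM, all lower and 1 by at least 1.2-fold, with a median of -0.17. That one was Axin1, a scaffold of the beta-catenin destruction complex, at 30.3 and 23.9 CPM (-0.34, -0.47 to -0.21), and the Lef1 target Axin2 had 61 and 55 UMIs.

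**Figure D5:**
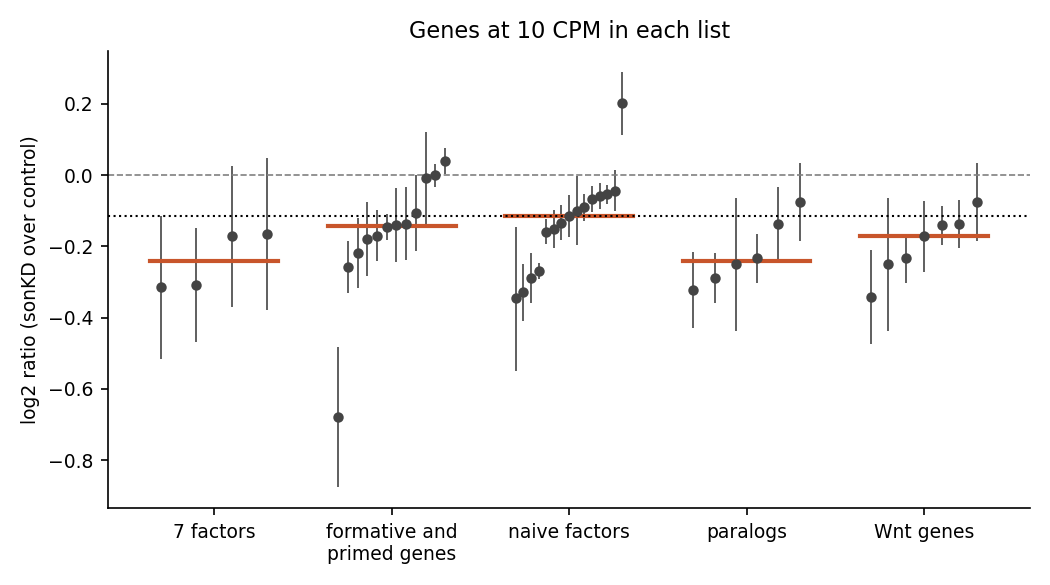
Log2 ratio of sonKD over control (y axis) for each gene at 10 CPM in the set of 7 factors and in 4 related lists, with exact conditional binomial 95% intervals; orange bars are list medians and the dotted line is the median of all genes, -0.12. The medians of the factors and of their paralogs are both -0.24, and Hes6 at -0.68 stands lowest.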

How the data were processed

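Single-cell UMI counts of 1 control and 1 sonKD library were analysed. Per the file headers and the submitters' processing notes, the authors made the deposited counts with Cell Ranger 7.1.0 on mm10. The values are whole numbers, and all barcodes are listed. Whether intronic reads were counted, and on which annotation, is not given in the sources used here. The labels name different NextSeq models. Positions are from GENCODE M21 on GRCm38, and promoters from RefSeq on GRCm38.p6, where 5 of the 7 factors matched.

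Counts were summed over kept cells and given as CPM. Ratios use a floor of 3 counts and no pseudocount. Intervals are exact Poisson, Clopper-Pearson and conditional binomial, at 95%. The interval of a difference of shares combines the bounds of both as a root sum of squares. Cells were thinned by drawing 4000 UMIs without replacement. The first draw used 1 random stream over all cells, so leaving out 2 barcodes redrew the rest. It was replaced by 1 stream per cell after its results had been seen. The interval of the Sox4 share difference held 0 in the first draw and not in the draw that replaced it, so shares lead with the exact mean over all draws, and the values of the first draw are printed. Doublets were not removed, and 1 alternative leaves out the deepest barcodes at 0.8% per 1000 cells.

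Members and lists were chosen with earlier results of these data known. The text names the 7 factors, Son, in each list the 2 genes farthest from the median ratio, paralogs at 10 CPM, the first of the 3 genes most like each factor (all 3 were to be named, but none came again in a second draw), and neighbours. Of the paralogs at 10 CPM, 1 is not reported here. Other genes were named after their values were seen. Lists were formative and primed genes, naive factors, paralogs, Wnt genes and markers of 7 cell types. Alternatives changed scaling, cell and gene filters, doublets, thinning depth and draw. The code was tested on simulated data. Python 3.11.15, numpy 2.4.6, scipy 1.17.1, pandas 2.3.3 and edgeR 4.0.16 (TMM factors only) were used.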

Additional observations from a re-analysis of the deposited data

How the results depend on the processing

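TMM factors, which moved the median of all genes by 0.09 to -0.03, gave 0 factors lower by 1.2-fold, a median of the factors of -0.15 and Son at -0.58. Leaving mitochondrial and ribosomal protein genes out of the CPM total gave 0 factors lower by 1.2-fold and Son at -0.60. With no filter on genes, 2 factors of 7, Lef1 and Zic2, were higher by 1.2-fold and 3 lower, beside 23.7% and 21.9% of all 20328 genes. A minimum of 50 CPM left none of the factors and gave no value. A limit of 5% mitochondrial UMIs left 3 factors at 10 CPM. No alternative run reversed the log2 ratio of Otx2, Pou3f1, Foxd3 or Sox4.

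At 6000 UMIs the Pou3f1 share difference was -2.33 points, and at 2500 UMIs -0.75. With at most 5% mitochondrial UMIs it was -1.05 (-2.14 to 0.11), which holds 0. Without thinning the share differences were 1.22 for Otx2, 0.383 for Pou3f1, 2.10 for Foxd3, 1.54 for Sox4, 0.165 for Sall2 and 0.652 for Zic2. Against the draw shown, all 6 turned from lower to higher in the deeper library. For Zic2 this turn rests on that draw, at -0.107 points. Its difference at equal depth was above 0 as the mean over all draws (0.088), with a second seed (0.097) and in the draw made first (0.194). Without thinning, the intervals exclude 0 for Foxd3 (0.65 to 3.58) and Zic2 (0.17 to 1.2). Counting only cells with at least 2 UMIs turned the sign for Pou3f1, to 0.038 points (-0.19 to 0.33), and for Sox4, to 0.042 (-0.25 to 0.39). Otx2 was then at 0.072 (-0.18 to 0.39) and Foxd3 still lower, at -0.043 (-0.27 to 0.24). All of these intervals held 0. Otx2 was also above 0 at 2500 UMIs, at 0.012 points (-0.72 to 0.80). Of the 21 genes most like the factors, 13 were chosen with Spearman correlation and 0 with a second seed. The second seed, the first random stream, the mean over all draws and the shared barcodes were alternatives chosen after seeing the data.

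No paired analysis was possible because each group held 1 library. Depth limits Lef1, Zic2 and Sall2 to a level, and double-positive cells to sums over pairs. Free RNA was measured in droplets, and no cell type that lacks these genes was at hand.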
